A study of Mus musculus with 6 samples.

Results

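Translation initiation and elongation factors were examined in liver RNA of Mdr2 knockout mice given vehicle or lycorine. The members were the protein-coding genes of the deposited table whose symbol starts with Eif and a digit from 1 to 6, or with Eef1 or Eef2, which includes the Eif2ak kinases and the Eif4ebp proteins. The rule found 68 genes among 58601 rows. All 6 libraries came from liver of animals with the genotype label Mdr2 knockout, 3 given vehicle and 3 given lycorine. Mice were 8 weeks old at the start and were treated for 2 weeks. The sample names write the genotype as Mdr2-/- and the growth protocol as Mdr2-HKO, an abbreviation it does not spell out. Both groups carry the same Mdr2 genotype, and no library of unaltered mice was analysed here. Strain, sex and dose are not given in the labels used here. Nothing in the labels states that each library is a separate animal, and the p-values therefore describe the scatter of these libraries alone, some or all of which may be technical. Lycorine is an alkaloid of Amaryllidaceae plants known as an inhibitor of protein synthesis on the eukaryotic ribosome.

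Initiation factors bring the initiator tRNA, the small ribosomal subunit and the capped end of an mRNA together, and release the assembled ribosome at the start codon. The trimeric eIF2 carries the initiator tRNA, and when its alpha subunit is phosphorylated by stress kinases it blocks its own exchange factor eIF2B, which lowers initiation. The eIF4F complex recognises the cap, and the 4E-binding proteins hold its cap-binding subunit inactive until the kinase mTORC1 phosphorylates them. Elongation factors then deliver each aminoacyl-tRNA and move the ribosome along the message. Liver makes most plasma proteins, and its hepatocytes carry abundant mRNA for this machinery.

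Promoter sequences are shown for the cap-binding complex, for eEF2 and for Eif2d, the member with the smallest p. Windows from 250 bases before to 50 bases after the annotated start, 300 bases in all, were taken from RefSeq on GRCm38.p6, which matched 52 of the 68 members. The following stretches run 5′ to 3′ on the gene's strand, with an E-box (CACGTG, a site read by MYC, MAX and USF) in capitals.
Eif4e, chr3:138527174-138527233, plus strand: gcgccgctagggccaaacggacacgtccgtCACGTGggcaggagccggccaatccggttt
Eif4g1, chr16:20672643-20672702, plus strand: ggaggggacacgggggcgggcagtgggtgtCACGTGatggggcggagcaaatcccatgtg
Eif4a1, chr11:69672583-69672642, minus strand: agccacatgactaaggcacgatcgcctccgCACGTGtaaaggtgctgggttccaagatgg
Eif4h, chr5:134639476-134639535, minus strand: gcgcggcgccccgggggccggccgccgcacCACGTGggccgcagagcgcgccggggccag
Eef2, chr10:81176558-81176617, plus strand: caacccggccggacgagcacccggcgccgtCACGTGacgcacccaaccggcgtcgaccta

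The E-box CACGTG, which is the same on both strands, was found in windows of 13 of the 52 members, or 25%, against 8.91% of 17492 protein-coding genes with a window. The holders included all 3 kinds of eIF4F subunit shown above, the helicase cofactor Eif4h, the hypusinated factor Eif5a and the elongation factor Eef2. Some genes have several windows, and per window the shares were 22.4% of 67 member windows and 7.84% of all windows. For this and the other motifs the comparison genes were not matched to the members for expression or base composition. A second motif was searched because the series title names Atf3, a transcription factor that reads the cAMP response element TGACGTCA. That palindrome was found in 1 member, Eef2, or 1.92% of the 52, against 2.54% of all genes. It lies at the annotated start, as the following stretch shows in capitals.
Eef2, chr10:81176623-81176646, plus strand: ggccgggcgtTGACGTCAgcggtc

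The composite site TGATGNAAT of ATF4 and C/EBP factors, searched on both strands, was found in 0 of the 52 members and in 0.926% of all genes. The ETS site CCGGAAGT, on both strands, was found in 9 members, or 17.3%, against 5.69% of all genes, among them Eif2b2, Eif2b4, Eif3d and Eif3l. No motif searched holds another within its letters. None of the 4 motifs was found in the last 100 bases before the RefSeq start of Eif2d, whose sequence is given because the results describe its libraries first.
Eif2d, chr1:131153107-131153206, plus strand: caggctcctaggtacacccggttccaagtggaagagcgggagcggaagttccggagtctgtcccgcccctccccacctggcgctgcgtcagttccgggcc

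The makeup of the libraries bears on every level below. Values are in TPM, a unit per transcript length in which the values of each library sum to the same total, and depth is unknown. Protein-coding nuclear genes held 51.5% to 71.5% of TPM with vehicle and 69.5% to 78.1% with lycorine, and the lowest share was in vehicle 3. Mitochondrial genes held 12.9%, 19.7% and 20.1% of TPM in vehicle 1 to 3 and 9.48%, 10.8% and 13.2% in lycorine 1 to 3, overlapping between vehicle 1 and lycorine 3, and the part of this share in the members' levels was not tested beyond the scalings below. Vehicle 3 also stood apart in assembled or unannotated rows, with 10.8% of TPM against 1.65% to 4.10% elsewhere, and in albumin, at 5039 TPM against 11820 to 19790 TPM. Summed TPM of 8 hepatocyte markers, all detected, was 16600 to 45300 with vehicle and 32300 to 49100 with lycorine. The 11 Kupffer cell markers summed to 225 to 554 TPM with vehicle and 154 to 414 TPM with lycorine, and the 9 markers of sinusoidal endothelium to 47.9 to 161 and 53.5 to 92.6 TPM. Of the markers 0 in these 3 lists were at 0 in every library. The summed levels of the 4 neutrophil markers did not overlap, at 6.98 to 27.9 TPM with vehicle and 1.76 to 4.19 TPM with lycorine, and their part in the results was not tested. The 6 bile duct markers summed to 206, 46.5 and 48.0 TPM in vehicle 1 to 3 and to 200, 139 and 50.5 TPM in lycorine 1 to 3. Their part was not tested either. In whole liver, fewer cells of a type and less RNA per cell cannot be told apart.

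Of the 68 members, 62 reached an average of 1 TPM across the 6 libraries and were tested with limma, within a fit of all 13854 rows that met this filter. The 6 left out were Eif4e1b, the oocyte form of the cap-binding protein, which was listed at 0 in every library, Eef1a2, Eif5a2, Eef1akmt3, Eif3j1 and the kinase gene Eif2ak4. Just outside the filter lay Eif2ak4, with a mean of 0.80 TPM, and Eif3j1, with 0.57 TPM. Just inside lay Eef1e1, with 1.35 TPM, and Eif2ak2, with 1.81 TPM.

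No factor of the machinery passed the test: 0 of the 62 members had a limma adjusted p (Benjamini-Hochberg) under 0.05, as did 0 of all rows, 0.0%. At an unadjusted p under 0.05 there was 1 member on the higher side, Eif2d, where 2.79% of all rows were so, and 0 on the lower side, against 0.65%. As deposited, 55 members had a log2 fold change above 0 and 7 below, with a median of 0.35, against a median of 0.22 over all rows, of which 69.9% lay above 0. With median-of-ratios scaling the split was 40 above and 22 below, with a median of 0.07 against -0.02 over all rows. With values rescaled to the sum of protein-coding nuclear genes it was 43 and 19, with medians of 0.11 and 0.01, and with quantile normalization 47 and 15, with medians of 0.13 and 0.07. The share of all rows above 0 was 47.8% with median-of-ratios scaling, 51.2% with protein-coding scaling and 58.3% with quantile normalization. Fold changes are on the log2(TPM + 1) scale, so that differences of weakly expressed genes are understated. Among the 7018 rows averaging at least 5 TPM, as deposited, the median was 0.37 for 51 members and 0.32 for all rows. Of those rows 79.6% lay above 0, as did 47 of the 51 members. The 95% interval of the fold change lay within a 2-fold change either way for 15 of the 62 members, and for the others a 2-fold difference in at least 1 direction lies inside the interval.

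**Figure D1:**
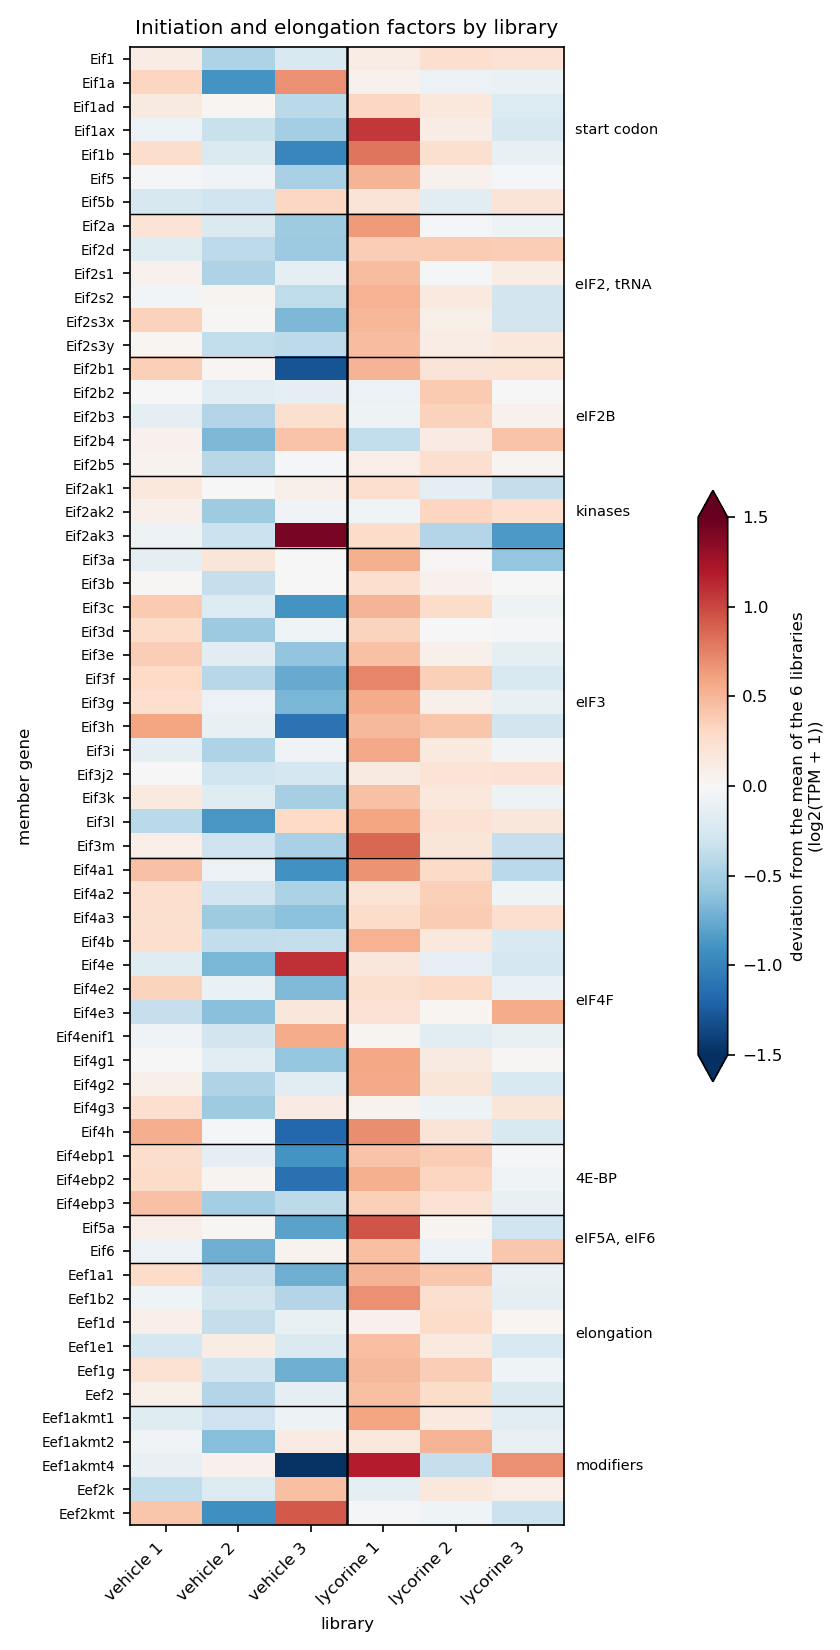
Deviation of each of the 62 tested members from its mean over the 6 libraries, on the log2(TPM + 1) scale, with libraries in columns, member genes in rows grouped by complex, and colours saturating at -1.5 and 1.5. Lycorine 1 has the highest value in 38 members, and vehicle 2 and vehicle 3 have the lowest in 27 and 30.

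Libraries did not overlap between the groups for 6 members, all higher in lycorine, or 9.68% of those tested, and 9.6% of all rows separated upward in the same way, as did 10.9% of the protein-coding ones. On the lower side there were 0 members, against 1.01% of all rows and 0.782% of the protein-coding ones. The 6 were Eif2d, Eif2s3y, Eif3i, Eif3j2, Eif4a3 and Eif4g1. With median-of-ratios scaling 2 members (3.23%) remained, Eif2d and Eif2s3y, against 3.2% of all rows upward and 3.65% downward. Rescaling to protein-coding nuclear genes left 3 (4.84%), the same pair with Eif4g1, against 4.48% of all rows upward and 2.01% downward. Quantile normalization gave 2 (3.23%), Eif2d and Eif4e3, against 4.02% of all rows upward and 2.82% downward. Downward there were 0 members under each of these scalings. Without vehicle 3, 12 members separated upward and 0 downward, against 15.3% and 1.96% of all rows, of which 70.3% had a log2 fold change above 0. With vehicle 3 and lycorine 3 both left out, 31 members separated upward and 0 downward, against 25.5% and 3.4% of all rows, of which 72.4% lay above 0. Upward separation held for 29 members (46.8%) without vehicle 1, against 31.3% of all rows. It held for 10 (16.1%) without lycorine 2, against 13.2%, and for 25 (40.3%) without lycorine 3, against 18.9%. Downward it held for 2 of 62 members without vehicle 2, against 7.58% of all rows, and for 2 of 62 without lycorine 1, against 2.99%. With no filter on low values 8 of 67 members (11.9%) separated upward, against 6.3% of all rows, the added pair being Eif3j1 and Eif5a2. With the filter raised to 5 TPM, 6 of 51 members (11.8%) did, against 13.8% of all rows. Leaving out 1 library moved the log2 fold change by a factor over 1.5, or turned its sign, for 57 of the 62 tested members.

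The order of the libraries was similar across many members. Of the 62 members 38 were highest in lycorine 1, or 61.3%, where 30.9% of all rows were. Vehicle 3 was the lowest library for 30 members, 48.4%, and vehicle 2 for 27, 43.5%, against 34.1% and 38.5% of all rows. Vehicle 3 was the highest library for 7 members, 11.3%, against 22.7% of all rows. The 7 were Eef2k, Eef2kmt, Eif1a, Eif2ak3, Eif4e, Eif4enif1 and Eif5b. These 7 had a median annotated exonic length of 6026 bases, and the 30 members lowest in vehicle 3 a median of 3201 bases. The lengths were not set against those of all rows. The summed TPM of all 68 members was 4433, 3063 and 2760 in vehicle 1 to 3 and 5239, 4718 and 3699 in lycorine 1 to 3, so lycorine 3 lay within the vehicle range. As a share of protein-coding nuclear TPM the sums were 0.62%, 0.481% and 0.536% with vehicle and 0.671%, 0.626% and 0.532% with lycorine, which also overlap.

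Delivery of the initiator tRNA held the member with the smallest p. Eif2d, or ligatin, which is not a subunit of eIF2 and acts in ribosome recycling and reinitiation, lies on chromosome 1 from 131153181 to 131187658 (GRCm38). It was at 35.9, 30.8 and 27.7 TPM in vehicle 1 to 3 and at 53.3, 53.8 and 52.95 TPM in lycorine 1 to 3. All lycorine libraries lay above all vehicle libraries, and the lycorine values were close to one another. Means were 31.5 ± 4.13 TPM for vehicle and 53.4 ± 0.422 TPM for lycorine (SD, n = 3 each). The log2 fold change was 0.75 (SE 0.26, 95% interval 0.14 to 1.36), with a limma adjusted p of 0.832 over all rows. The exact two-sided permutation p was 0.1, the smallest that 3 against 3 libraries allow. The log2 fold change was 0.45 with median-of-ratios scaling, 0.49 with protein-coding scaling and 0.67 without vehicle 3 and lycorine 3, with libraries that did not overlap in each of these.

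The 3 subunits of eIF2 itself were weakly expressed and overlapped between groups, except for the Y-linked gamma subunit. Eif2s1, the alpha subunit that stress kinases phosphorylate, was at 4.71, 2.96 and 3.91 TPM with vehicle and 6.53, 4.35 and 4.88 TPM with lycorine. Its lycorine 2 value lay below that of vehicle 1, and the log2 fold change was 0.36 (95% interval -0.33 to 1.06, limma adjusted p = 0.832). Eif2s2, the beta subunit, had a log2 fold change of 0.26. The gamma subunit is encoded on both sex chromosomes, and transcripts of the Y copy were found in all 6 libraries. Eif2s3y was at 9.96, 7.30 and 7.15 TPM with vehicle and 13.8, 10.53 and 10.94 TPM with lycorine, so the groups did not overlap. Its X-linked partner Eif2s3x was at 6.26, 4.80 and 2.58 TPM with vehicle and 7.07, 5.10 and 3.74 TPM with lycorine, and these do overlap. Their log2 fold changes were 0.49 and 0.21, and with median-of-ratios scaling 0.20 and -0.04, so the X-linked copy flips its sign. The pair are near-identical in sequence and can share reads. Eif2a, an alternative carrier of initiator tRNA despite its symbol, had a log2 fold change of 0.36 and overlapping libraries.

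**Figure D2:**
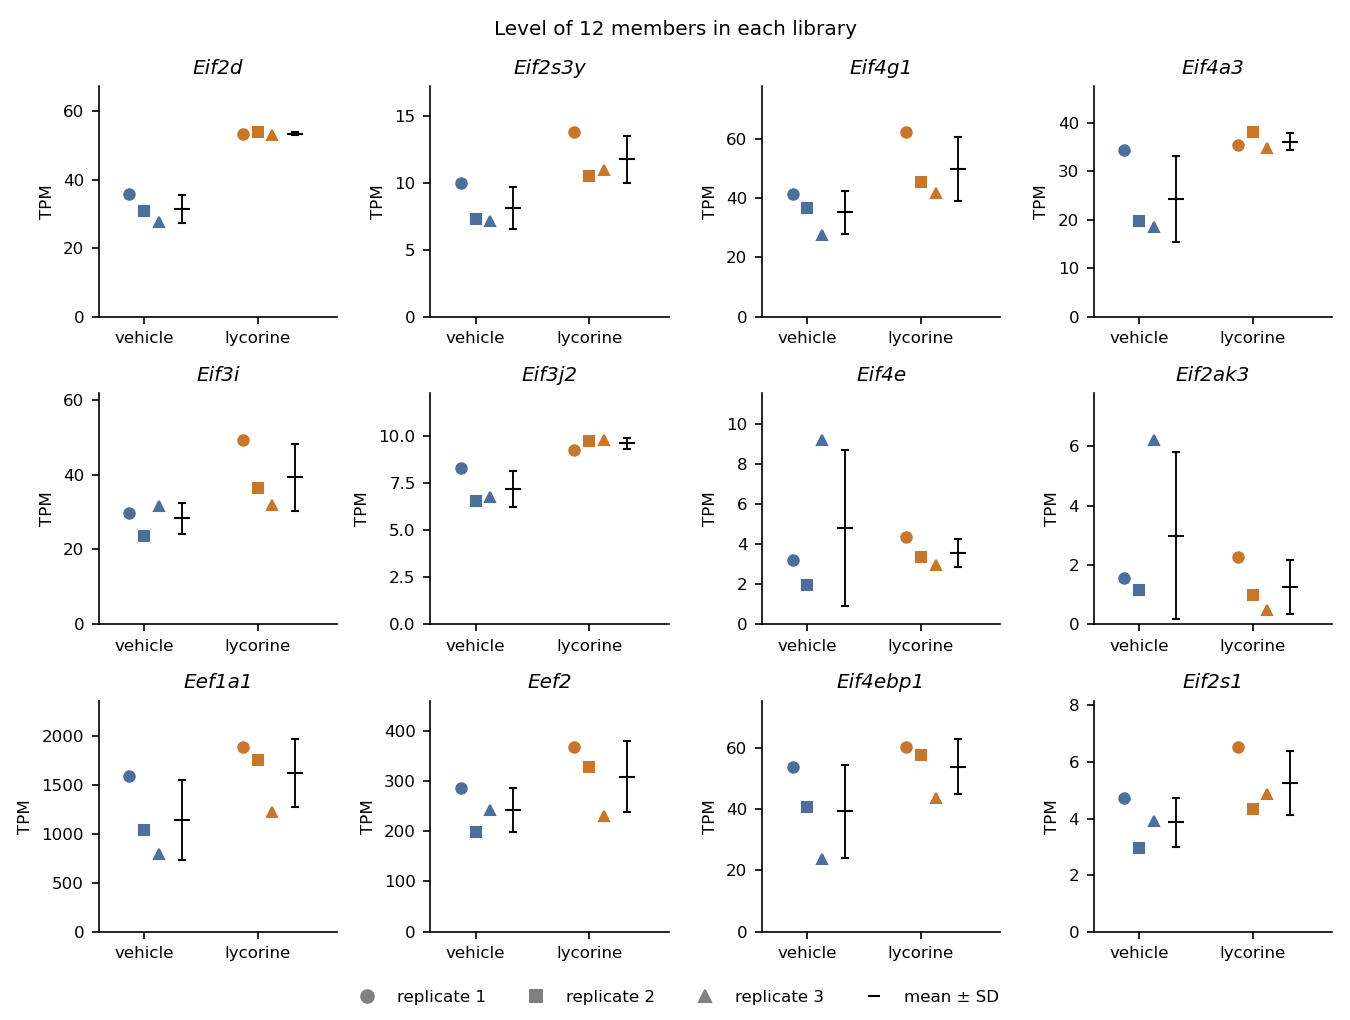
Level in TPM of 12 members, with 1 point per library (colour for group, shape for replicate number) and the mean ± SD of 3 libraries beside each group, on axes that start at 0. The lycorine libraries of Eif2d sit between 52.95 and 53.8 TPM, above all vehicle libraries, while Eif4e and Eif2ak3 are high in vehicle 3 alone.

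The exchange factor eIF2B, which recharges eIF2 with GTP, did not separate between the groups. Its 5 subunits had log2 fold changes of 0.12 to 0.61 as deposited, a median of 0.22 equal to that of all rows, and overlapping libraries in 5 of 5 cases. With median-of-ratios scaling 1 of the 5 had a log2 fold change above 0, and with protein-coding scaling 2. Eif2b5, the catalytic epsilon subunit, was at 24.8, 17.6 and 23.2 TPM with vehicle and 25.5, 28.5 and 24.5 TPM with lycorine. Lycorine 3 was below vehicle 1, so the groups overlapped narrowly, and the log2 fold change was 0.26. Eif2b1, the regulatory alpha subunit, was at 12.8, 10.02 and 3.40 TPM with vehicle and 14.4, 11.4 and 11.4 TPM with lycorine. Vehicle 3 was far below the others, and the log2 fold change of 0.61 was 0.11 without that library.

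The eIF2alpha kinases were the only complex group with a median below 0 as deposited, at -0.17 for 3 tested genes. Eif2ak3, the endoplasmic reticulum stress kinase PERK, was at 1.56, 1.17 and 6.23 TPM with vehicle and 2.27, 1.0 and 0.49 TPM with lycorine. Vehicle 3 was higher than any other library, and the remaining values overlapped. The log2 fold change was -0.68 (SE 0.57; adjusted p = 0.832 in limma), -0.14 without vehicle 3 and 0.12 without vehicle 3 and lycorine 3, so its sign rests on those libraries. Eif2ak1, the heme-regulated kinase HRI, was at 5.27, 4.65 and 4.99 TPM with vehicle and 5.71, 4.07 and 3.38 TPM with lycorine, with lycorine 1 the highest and a log2 fold change of -0.17. Eif2ak2, the kinase PKR that senses double-stranded RNA, was at 1.90, 0.91 and 1.66 TPM with vehicle and 1.65, 2.45 and 2.28 TPM with lycorine, with a log2 fold change of 0.34. Eif2ak4, the kinase GCN2 that senses uncharged tRNA, stayed at 0.50 to 0.91 TPM with vehicle and 0.64 to 1.17 TPM with lycorine and was not tested.

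Start codon selection depends on eIF1, eIF1A and eIF5 on the scanning ribosome, and on eIF5B for joining of the large subunit. Of 7 tested genes 6 had a log2 fold change above 0, with a median of 0.37, and 4 did with median-of-ratios scaling. Eif1, the most abundant of them, was at 469, 314 and 371 TPM with vehicle and 468.9, 519 and 504 TPM with lycorine. The groups touched between vehicle 1 and lycorine 1, and the log2 fold change was 0.39 (limma adjusted p = 0.832). The X-linked eIF1A gene Eif1ax was at 2.34, 1.81 and 1.48 TPM with vehicle and 6.42, 2.83 and 2.00 TPM with lycorine, with lycorine 3 inside the vehicle range. Its autosomal relative Eif1a was at 13.2, 5.11 and 17.3 TPM with vehicle and 10.9, 9.69 and 9.57 TPM with lycorine, and the 3 lycorine libraries lay between those of vehicle. The log2 fold changes of the pair were 0.62 and -0.08, and the latter was 0.24 without vehicle 3. The 2 genes encode near-identical proteins and can share reads. Eif5, which triggers GTP hydrolysis on eIF2, and Eif5b had log2 fold changes of 0.37 and 0.15, the second of which was -0.14 with median-of-ratios scaling.

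The scaffold eIF3, the largest initiation factor, had subunit transcripts of very unequal level, and 0 of its genes passed the test. Among its 13 tested genes of 14, mean levels ran from 6.15 TPM for the RNA-binding core subunit Eif3a to 143 TPM for Eif3h, 23.3-fold apart. In TPM, which is per transcript length, Eif3h, Eif3k at 84.8 TPM and Eif3g at 65.2 TPM stood above the other subunits, which lay between 6.15 and 37.2 TPM. Of the 13, 12 had a log2 fold change above 0, with a median of 0.38, and 9 did with median-of-ratios scaling, with a median of 0.10. Summed TPM of the complex was 637, 441 and 353 with vehicle and 740.5, 609 and 474 with lycorine, with lycorine 2 and lycorine 3 below vehicle 1.

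In 2 tested eIF3 genes the groups separated. They also did in the untested Eif3j1, at 0.43, 0.38 and 0.19 TPM with vehicle and 0.66, 0.99 and 0.77 TPM with lycorine. Eif3i, a subunit with WD repeats, was at 29.7, 23.6 and 31.6 TPM with vehicle and 49.4, 36.5 and 31.95 TPM with lycorine, with lycorine 3 just above vehicle 3. Its log2 fold change was 0.44 (SE 0.30), and 0.14 with median-of-ratios scaling, where the libraries overlapped. Eif3j2, a loosely bound subunit with a near-identical relative in Eif3j1, was at 8.27, 6.53 and 6.75 TPM with vehicle and 9.23, 9.74 and 9.79 TPM with lycorine, a log2 fold change of 0.38 that became 0.10 with median-of-ratios scaling. The core subunit Eif3a was at 5.27, 6.92 and 5.91 TPM with vehicle and 9.09, 6.06 and 3.64 TPM with lycorine. Lycorine held both its highest and its lowest value, and the log2 fold change was -0.02 (95% interval -0.84 to 0.80). Eif3l had the largest log2 fold change of the complex as deposited, 0.66, from 12.6, 8.81 and 21.1 TPM with vehicle and 26.1, 19.9 and 19.3 TPM with lycorine, overlapping through vehicle 3, and it was 0.97 without that library. Eif3h, the most abundant subunit, was at 202, 123 and 61.4 TPM with vehicle and 186, 178 and 110 TPM with lycorine. The log2 fold change of 0.42 was -0.03 without vehicle 3 and 0.21 without vehicle 3 and lycorine 3. An antisense gene overlaps 43.3% of the annotated exonic bases of Eif3d, and strand use in counting is not given in the sources used here, so its value, a log2 fold change of 0.22, is uncertain. The core subunits Eif3b and Eif3c had log2 fold changes of 0.22 and 0.47, with overlapping libraries, and Eif3c had 0.14 without vehicle 3.

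**Figure D3:**
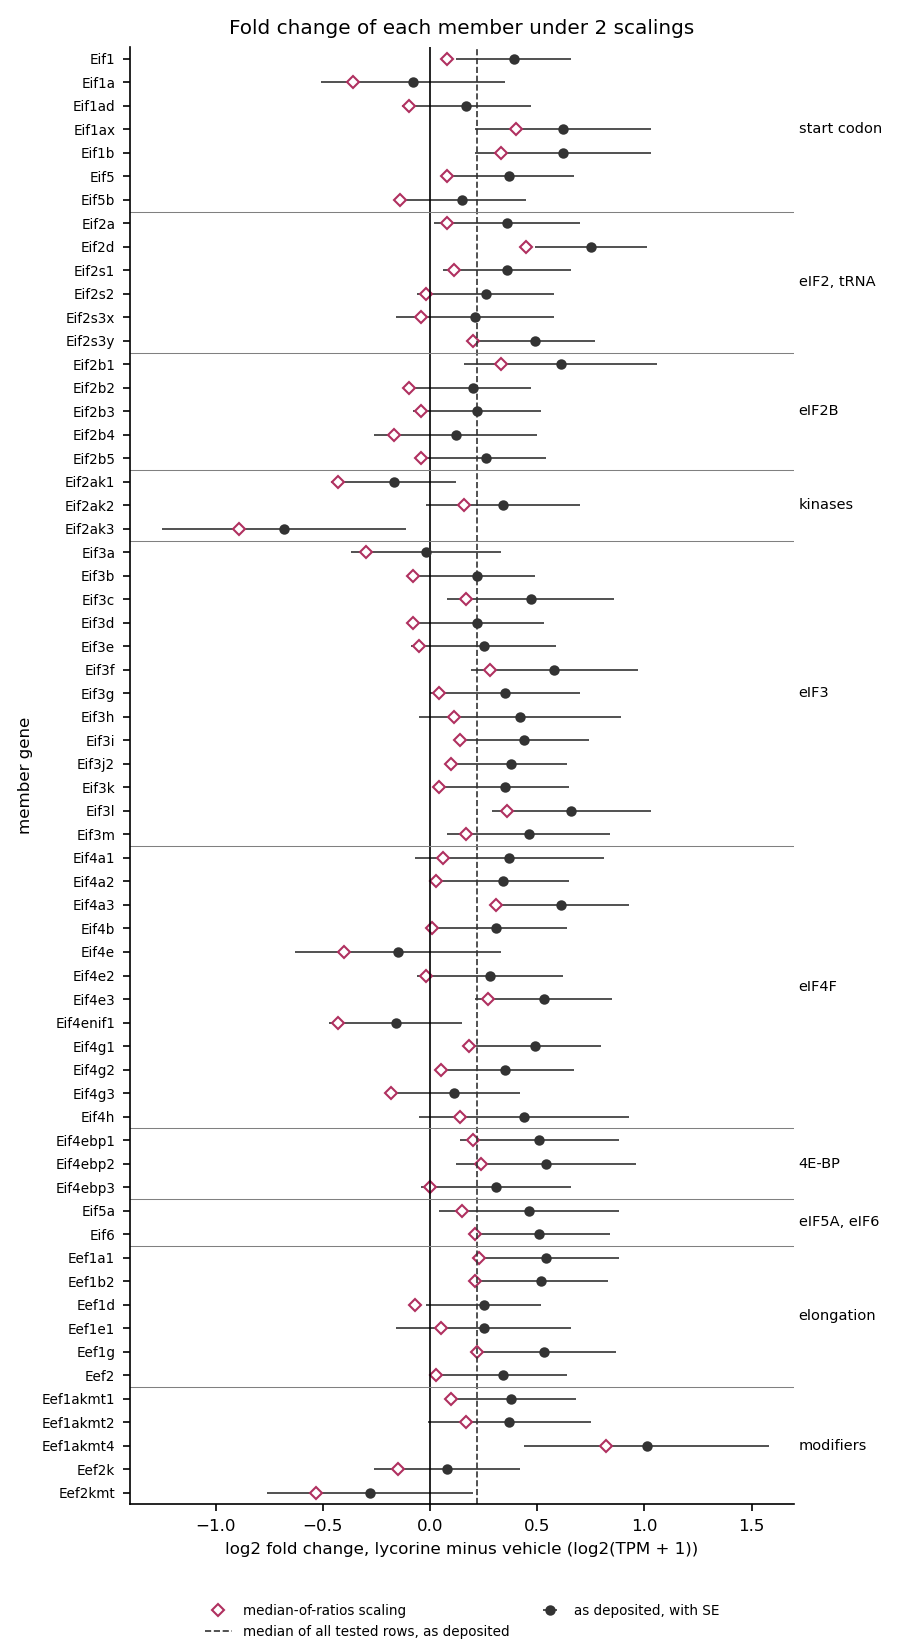
Log2 fold change of each tested member, lycorine minus vehicle, on the log2(TPM + 1) scale, with member genes grouped by complex. Filled points with bars give the value as deposited ± SE, open diamonds the value with median-of-ratios scaling, and the dashed line the median of all tested rows, 0.22. The diamonds centre near 0, with a median of 0.07, and 40 of 62 lie above 0.

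The cap-binding complex eIF4F joins the cap reader eIF4E, the scaffold eIF4G and the helicase eIF4A. Of 12 tested genes of this group 10 had a log2 fold change above 0 as deposited, with a median of 0.34, and 8 did with median-of-ratios scaling, with a median of 0.04. Eif4g1, the main scaffold, was at 41.5, 36.7 and 27.4 TPM with vehicle and 62.2, 45.5 and 41.8 TPM with lycorine, so the groups met but did not overlap. Its log2 fold change was 0.49 (SE 0.31; adjusted p = 0.832 in limma), and 0.18 with median-of-ratios scaling, where they overlapped. Eif4a3, a helicase of the exon junction complex rather than of eIF4F, was at 34.5, 19.7 and 18.6 TPM with vehicle and 35.4, 38.1 and 34.8 TPM with lycorine. Vehicle 1 lay just below the lycorine libraries, and the log2 fold change was 0.61 (SE 0.32), with an unadjusted p of 0.0975.

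Eif4e, the cap reader itself, was at 3.18, 1.95 and 9.20 TPM with vehicle and 4.34, 3.36 and 2.95 TPM with lycorine. Vehicle 3 was above all others, and the log2 fold change of -0.15 (95% interval -1.27 to 0.97) was 0.36 without it. The cap-binding relative Eif4e2, known as 4EHP, had a higher level, at 40.2, 29.7 and 19.8 TPM with vehicle and 37.7, 38.9 and 29.7 TPM with lycorine, and vehicle 3 was its lowest library. Eif4a1, the main helicase, was at 113, 77.5 and 43.6 TPM with vehicle and 132, 101 and 61.95 TPM with lycorine. The log2 fold change of 0.37 was 0.01 without vehicle 3 and 0.30 without vehicle 3 and lycorine 3. Its paralog Eif4a2 was at 55.1, 37.7 and 32.8 TPM with vehicle and 53.4, 59.6 and 44.0 TPM with lycorine, with a log2 fold change of 0.34. The helicases are close paralogs that can share reads, and small nucleolar RNA genes lie within the annotated exons of both helicase genes. Eif4b and Eif4h, the helicase cofactors, had log2 fold changes of 0.31 and 0.44, and without vehicle 3 Eif4h had -0.04. Without vehicle 3 and lycorine 3 Eif4h had 0.19. The alternative scaffold Eif4g2 and the paralog Eif4g3 had log2 fold changes of 0.35 and 0.11. Eif4enif1, which carries eIF4E between cytoplasm and nucleus, had -0.16, and 0.08 without vehicle 3.

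The 4E-binding proteins, which compete with the scaffold for eIF4E, were more abundant as transcripts than Eif4e and did not separate across the 6 libraries. Eif4ebp1 was at 53.96, 40.65 and 23.6 TPM with vehicle and 60.4, 57.8 and 43.6 TPM with lycorine, with a log2 fold change of 0.51 (95% interval -0.35 to 1.36). Eif4ebp2 was at 30.2, 25.5 and 10.9 TPM with vehicle and 36.5, 31.25 and 23.9 TPM with lycorine, with 0.54. In both genes lycorine 3 lay below vehicle 1, and without vehicle 3 the fold changes were 0.19 and 0.11. Without vehicle 3 and lycorine 3 they were 0.33 and 0.27, and the groups did not overlap, as for 25.5% of all rows upward. Eif4ebp3 was at 77.5, 39.8 and 43.1 TPM with vehicle and 73.2, 66.2 and 52.8 TPM with lycorine, with vehicle 1 the highest, and its log2 fold change was 0.31 as deposited and 0.00 with median-of-ratios scaling. Another protein-coding gene on the same strand shares 67.3% of the annotated exonic bases of Eif4ebp3, so its value may include reads of that gene.

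Eif5a, the hypusine-bearing factor that eases stalled ribosomes, and Eif6, which keeps the large subunit from joining too early, had log2 fold changes of 0.46 and 0.51. Eif5a was at 145, 136 and 76.5 TPM with vehicle and 259, 139 and 109 TPM with lycorine, with lycorine 1 far above the rest. Its log2 fold change was 0.10 without lycorine 1 and 0.17 without vehicle 3. Eif6 was at 37.8, 23.7 and 41.8 TPM with vehicle and 55.04, 37.6 and 53.6 TPM with lycorine, with lycorine 2 below vehicle 1 and vehicle 3. Neither passed, with a limma adjusted p of 0.832 in each.

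Elongation factors were the group with the highest summed TPM in each library, and 0 of them passed the test. Eef1a1, which delivers aminoacyl-tRNA, alone held 28.7% to 35.9% of the members' summed TPM with vehicle and 33.1% to 37.0% with lycorine. It was at 1591, 1035 and 793 TPM with vehicle and 1885, 1748 and 1226 TPM with lycorine, with lycorine 3 below vehicle 1. The log2 fold change was 0.54 (95% interval -0.26 to 1.34, limma adjusted p = 0.832), 0.23 with median-of-ratios scaling and 0.31 without vehicle 3. Eef2, the translocase, was at 286, 198 and 242 TPM with vehicle and 367, 327 and 231 TPM with lycorine, and lycorine 3 again lay within the vehicle range. Its log2 fold change was 0.34 (95% interval -0.37 to 1.05), and 0.03 with median-of-ratios scaling. Of 6 tested elongation factors 6 had a log2 fold change above 0 as deposited, from 0.25 for Eef1d and Eef1e1, the second of which encodes a scaffold protein of the synthetase complex, to 0.54, and 5 did with median-of-ratios scaling. The exchange factor subunits Eef1b2 and Eef1g, which recharge eEF1A, had 0.52 and 0.53, with overlapping libraries. Eef1a2, the form of muscle and neurons, stayed at or under 0.09 TPM, and the 3 skeletal muscle markers summed to at most 0.31 TPM in any library.

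Among enzymes that modify the elongation factors, Eef2k, the kinase that inhibits eEF2, was at 1.77, 2.09 and 3.89 TPM with vehicle and 2.25, 3.0 and 2.84 TPM with lycorine, with a log2 fold change of 0.08 (95% interval -0.72 to 0.89). Eef2kmt, a methyltransferase of eEF2, ranged from 2.57 to 11.8 TPM within vehicle alone and had -0.28, which became 0.11 without vehicle 3. Eef1akmt4, a methyltransferase of eEF1A, had the largest log2 fold change of the tested members as deposited, 1.01 (SE 0.57), from 2.05, 2.45 and 0.18 TPM with vehicle and 6.46, 1.6 and 4.28 TPM with lycorine. The groups overlapped, and another coding gene on its strand shares 30.7% of its exonic bases. Its log2 fold change was 0.53 without vehicle 3 and 0.04 with array quality weights, under which Eif3l and Eef1akmt2 were higher, at 0.80 each.

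Ratios of partner transcripts within a library depend on how libraries are scaled only through the 1 TPM added to each value, and 8 were compared. None passed an exact two-sided permutation test after Benjamini-Hochberg adjustment over the 8 (adjusted p of 0.8 to 1), and the design cannot go below an unadjusted p of 0.1. The log2 ratio of Eif4ebp1 to Eif4e, on TPM + 1, was 3.72, 3.82 and 1.27 with vehicle and 3.52, 3.75 and 3.5 with lycorine. Leaving vehicle 3 aside, 5 libraries lay within 3.5 to 3.82, and the same library was the lowest for Eif4ebp2 and Eif4ebp3 over Eif4e. The difference between groups was 0.66, and -0.18 without vehicle 3. For Eef1a1 over Eef2 the log2 ratio was 2.47, 2.38 and 1.71 with vehicle and 2.36, 2.41 and 2.40 with lycorine, a difference of 0.21 that was -0.03 without vehicle 3. The ratio of Eif2ak3 to its substrate Eif2s1 was the 1 pair whose groups did not overlap, at -1.16, -0.87 and 0.56 with vehicle and -1.20, -1.42 and -1.98 with lycorine. Vehicle 1 and lycorine 1 were close, the difference was -1.05 (exact permutation p = 0.1), and it was -0.52 without vehicle 3 and -0.30 without vehicle 3 and lycorine 3.

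**Figure D4:**
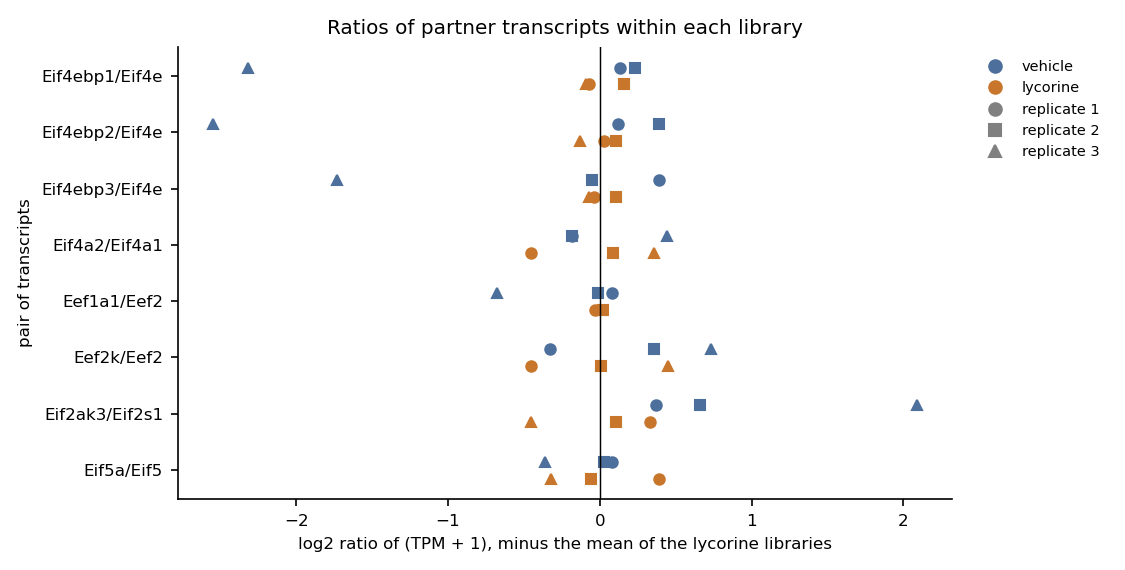
Log2 ratio of (TPM + 1) of 8 pairs of member transcripts in each library, set relative to the mean of the lycorine libraries, with colour for group and shape for replicate number. Vehicle 3 lies apart from the other 5 libraries in the 3 ratios over Eif4e, and the groups separate for Eif2ak3 over Eif2s1.

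Other genes of translation were counted from companion lists, and 0 of their 73 tested genes passed limma over all rows. Groups separated upward in 2 of 9 mitochondrial translation factors, 2 of 7 hypusine and diphthamide enzymes and 2 of 9 initiation partners. They did in 1 of 8 termination and recycling factors, 1 of 12 mTORC1 and MAP kinase genes, 1 of 20 synthetases and 0 of 8 stress response genes. Of all rows 9.6% separated upward, as did 10.9% of the protein-coding ones. Mitochondrial translation factors had the highest list median, a log2 fold change of 0.53 over 9 tested genes, of which 8 lay above 0, and 0.27 with median-of-ratios scaling. In that list Mtif3, a mitochondrial initiation factor, had the smallest p, at 9.73 ± 1.77 and 14.9 ± 1.87 TPM (SD, n = 3 each) without overlap, a log2 fold change of 0.57 and 0.28 with median-of-ratios scaling. Tsfm, the exchange factor of the mitochondrial elongation factor Tufm, was at 7.28 ± 2.87 TPM for vehicle and 11.8 ± 1.30 TPM for lycorine (SD, n = 3 each), also without overlap. All 20 tested cytosolic aminoacyl-tRNA synthetases lay above 0, with a median of 0.30 as deposited and 0.02 with median-of-ratios scaling. Iars, the isoleucine enzyme, had the smallest p of these lists, at 6.51 ± 1.63 and 11.8 ± 2.88 TPM, a log2 fold change of 0.76 (unadjusted p = 0.0446, limma adjusted p = 0.832), with groups that did not overlap.

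The list of the eIF2alpha phosphatase and integrated stress response had a median of 0.08 over 8 tested genes, and -0.17 with median-of-ratios scaling. Ppp1r15a, the inducible phosphatase subunit GADD34, was at 19.7 ± 8.17 TPM with vehicle and 13.1 ± 4.06 TPM with lycorine, and Atf4, translated when eIF2alpha is phosphorylated, at 38.3 ± 17.5 and 43.8 ± 9.43 TPM (SD, n = 3 each). Termination and recycling factors had a median of 0.20 over 8 genes, initiation partners 0.19 over 9, and the mTORC1 and MAP kinase arm 0.19 over 12. With median-of-ratios scaling these medians were -0.08, -0.09 and -0.03. Of 7 tested hypusine and diphthamide enzymes 4 lay above 0, with a median of 0.25, and -0.03 with median-of-ratios scaling. Dhps, which starts the hypusine modification of eIF5A, was at 11.95 ± 2.02 TPM with vehicle and 18.6 ± 2.58 TPM with lycorine, without overlap, and had a log2 fold change of 0.60 (SE 0.28, limma adjusted p = 0.832), and 0.31 with median-of-ratios scaling.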

How the data were processed

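The authors deposited 1 table of values per gene and library, in TPM although its name speaks of FPKM, since each column sums to 1000000 within rounding. Builds GRCm38 and mm10 are named, per the submitters' processing notes; which aligner, quantifier and annotation served is not stated in what was used here. Vehicle columns carry only genotype and number, and the lycorine columns a short form of the drug. Names and coordinates came from GENCODE M21. The 13854 rows averaging 1 TPM or more entered limma (version 3.58.1, R 4.3.3) as log2(TPM + 1), lycorine minus vehicle, with a trended prior variance. Two-sided p-values were adjusted by the Benjamini-Hochberg method over these rows, and 0.05 was the threshold. The procedure was tested on data simulated with independent noise in each value. Those data held no shift shared by a whole library, so the test does not cover the library-wide differences seen here. Single values also had an exact permutation test (scipy 1.17.1). TPM keeps no depth, so no counting interval is given. The members and lists were chosen with earlier results of these data known. Named genes were fixed anchors of each complex, the members with the smallest p, and those whose groups did not overlap; other members are named as examples after their values were seen. Companion lists name up to 3 genes each by smallest p, and Atf4 was added after its values were seen. Alternatives covered the pseudocount, filter, scaling, variance model, library weights, a replicate block and leaving out libraries; leaving out vehicle 3 and lycorine 3 together was chosen after seeing the data.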

Additional observations from a re-analysis of the deposited data

How the results depend on the processing

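Of 62 tested members, 38 kept the sign of their log2 fold change under each of the 17 alternatives that gave them a value. The other 24 changed it under at least 1. The filter at 5 TPM gave a value for 51. A changed filter, a fit without variance trend and the replicate block leave each fold change as it is, so they cannot turn a sign. Members passing limma's adjusted threshold stayed at 0 throughout. Rows passing were 1 with a pseudocount of 0.1 and 1 with array quality weights, and 0 to 2 with 1 library left out. Upward separation held for 2 members with median-of-ratios scaling, 2 with quantile normalization, 3 with protein-coding scaling, 31 without vehicle 3 and lycorine 3, and 6 to 29 with 1 library left out (29 without vehicle 1 and 25 without lycorine 3, against 31.3% and 18.9% of all rows), and downward separation for 0 to 2 (2 without vehicle 2 or lycorine 1, against 7.58% and 2.99%); fewer libraries overlap less often by construction. The members' median was 0.07 with median-of-ratios scaling, 0.23 to 0.50 with 1 library left out and 0.33 without vehicle 3 and lycorine 3.

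With median-of-ratios scaling the members that turned negative were Eif2b5 (-0.04), Eif2b2 (-0.10), Eif3d (-0.08), Eif3e (-0.05), Eif1ad (-0.10), Eif5b (-0.14), Eif4e2 (-0.02), Eif2b3 (-0.04), Eif4g3 (-0.18), Eif2b4 (-0.17), Eef2k (-0.15), Eif2s3x (-0.04), Eef1d (-0.07), Eif3b (-0.08) and Eif2s2 (-0.02). With protein-coding scaling they were Eif2b2 (-0.05), Eif3d (-0.04), Eif3e (-0.0047), Eif1ad (-0.06), Eif5b (-0.10), Eif2b3 (-0.01), Eif4g3 (-0.14), Eif2b4 (-0.13), Eef2k (-0.12), Eif2s3x (-0.00232), Eef1d (-0.02) and Eif3b (-0.04). With quantile normalization they were Eif2b2 (-0.03), Eif3d (-0.04), Eif5b (-0.07), Eif4g3 (-0.12), Eif2b4 (-0.16), Eef1d (-0.05), Eif3b (-0.04) and Eif4ebp3 (-0.01). Array quality weights turned Eef2kmt (0.16), Eif4e (0.15) and Eif1a (0.21) positive. Leaving out vehicle 3 and lycorine 3 turned Eif4enif1 (0.10), Eef2kmt (0.20), Eif3a (0.26), Eif4e (0.46), Eif2ak3 (0.12) and Eif1a (0.28) positive, and the ratios over Eif4e of Eif4ebp1 (-0.13), Eif4ebp2 (-0.19) and Eif4ebp3 (-0.14) and Eef1a1 over Eef2 (-0.04) negative. The cause was not tested.

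With 1 library left out, sign changes arose in Eef2k (-0.08 to 0.33), Eef2kmt (-0.81 to 0.11), Eif1a (-0.55 to 0.24), Eif2b4 (-0.18 to 0.37), Eif2s3x (-0.08 to 0.43), Eif3a (-0.29 to 0.27), Eif3h (-0.03 to 0.82), Eif4e (-0.53 to 0.36), Eif4enif1 (-0.33 to 0.08), Eif4g3 (-0.13 to 0.26) and Eif4h (-0.04 to 0.82), most often without vehicle 3. Among ratios they arose in Eef1a1 over Eef2 (-0.03 to 0.35), Eif4a2 over Eif4a1 (-0.21 to 0.20), Eif4ebp1 (-0.18 to 1.10), Eif4ebp2 (-0.25 to 1.22) and Eif4ebp3 (-0.17 to 0.88) over Eif4e, and Eif5a over Eif5 (-0.10 to 0.25).

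Whether the replicate numbers pair the libraries is not stated in the labels used here. Deviations from the group means correlated at 0.311, 0.0494 and 0.291 for same-numbered libraries 1 to 3. Of the other pairs, vehicle 2 with lycorine 1 gave 0.214, and the rest lay between -0.344 and -0.00686. The correlations run across genes, which are not independent replicates. The 3 deviations of a group also sum to 0 for each gene, so the correlations cannot decide the pairing. With a replicate block 0 rows and 0 members passed in limma, and 1033 rows had an unadjusted p under 0.05 in place of 476. Each number holds 1 library of each group, so the block cannot change a fold change or the members' median of 0.35. For the same reason it cannot change a ratio's difference, such as -1.05 for Eif2ak3 over Eif2s1 and 0.66 for Eif4ebp1 over Eif4e.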
